A study of Mus musculus with 27 samples.

Results

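The Slco and Slc22a genes of mouse liver, which encode carriers of organic anions, cations and zwitterions, were followed across 3 diets that differed in iron. Members were chosen by gene symbol (any symbol starting with Slc22a or Slco) and by level, with 0.5 FPKM or more in at least 1 diet required for description. FPKM counts fragments per length of transcript and per size of library, so levels can be compared between genes. Of 22552 genes in the RNA table, 41 carried such a symbol, 26 of them Slc22a and 15 Slco genes. Of these, 18 passed the level threshold (12 Slc22a and 6 Slco), and the other 23 were counted only. The level threshold used the same FPKM as the descriptions, so the levels and calls below describe the members and are not independent evidence about them.

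All mice were male, of strain C57B/6J, and the tissue was liver, with 3 mice in each diet group. The standard-iron diet (SID) held 50 mg carbonyl iron per kg, while the low-iron diet (LID) held 0.9 mg and the high-iron diet (HID) 8.3 g in each kg. Feeding of SID and HID started at 6 weeks of age and that of LID at 3 weeks, so in LID the iron level and the age at the start cannot be told apart. The authors deposited 1 combined FPKM value per gene and diet for the 9 RNA libraries. No values per library were available, so no value carries an SD, read depth is unknown, and no library could be left out. The same series held 18 DNA methylation libraries. None of the 48 deposited methylation loci, in 10 genes, lay in an Slc22a or Slco gene.

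Hepatocytes take up organic ions from portal blood before metabolising them or passing them into bile. Slco genes encode organic anion transporting polypeptides (OATPs), sodium-independent carriers of bile acids, bilirubin, steroid conjugates, thyroid hormones and many drugs. Slc22a genes encode the organic cation transporters (OCTs), the carnitine and zwitterion transporters (OCTNs) and the organic anion transporters (OATs). In liver both families sit mainly on the sinusoidal membrane, facing the blood, and several mouse members are known to differ between the sexes.

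The largest differences of HID from SID lay in 2 sets of neighbouring genes. Slco1a1 fell from 156 FPKM in SID to 12.5 in HID, while Slco1a4, next to it on the chromosome, rose from 7.65 to 37.6. In the Slc22a cluster, Slc22a26, Slc22a27 and Slc22a29 rose in HID and in LID, and Slc22a28 and Slc22a30 fell in HID. The genes of this cluster that rose passed the level threshold only through HID and LID, so their differences from SID were partly built into the selection. Slc22a7, in neither set, fell in both diets, and its 5.02-fold fall in LID was the largest fall among the members there. Slco1b2, the most abundant Slco gene, was not called in any contrast.

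A gene is said to have risen or fallen where the authors' deposited table gives it an adjusted p under 0.05. Log2 changes are differences of log2(FPKM + 1), which understates the change of low genes, relative to the median gene tested. That median was −0.07 in HID against SID. It was −0.13 in LID against SID, and in HID against LID 0.06. In HID against SID, 4 of the 18 members were called higher and 5 lower, beside 2.93% higher and 3.65% lower among all 11045 tested genes that passed the same level threshold. In LID against SID, 4 of 18 were higher and 2 lower, beside 1.63% and 2.89% of 11076 genes. In HID against LID, 5 of 17 tested members were higher and 2 lower, beside 2.02% and 1.84% of 11115 genes. Slc22a26, Slc22a27 and Slc22a29, called higher in HID and in LID against SID, were under 0.5 FPKM in SID. They passed the level threshold only through HID and LID, so their calls against SID were partly built into the selection. Counted over the contrasts, 5 members were called in all 3 of them, 2 in 2, 3 in 1 and 8 in none. HID and LID were each set against the same SID libraries, so their differences from SID are not independent of each other.

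The members' median log2 change stood at −0.11 in HID against SID, −0.01 in LID against SID and −0.03 in HID against LID, beside 0.02, 0.03 and −0.01 for all tested genes past the level threshold. Their median absolute log2 change was 0.66 in HID against SID, 0.19 in LID against SID and 0.65 in HID against LID, beside 0.18, 0.17 and 0.15 for those genes. The members' changes in HID were thus large in both directions while their median lay near 0. They include Slc22a26, Slc22a27 and Slc22a29, whose differences from SID were partly built into the selection.

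**Figure D1:**
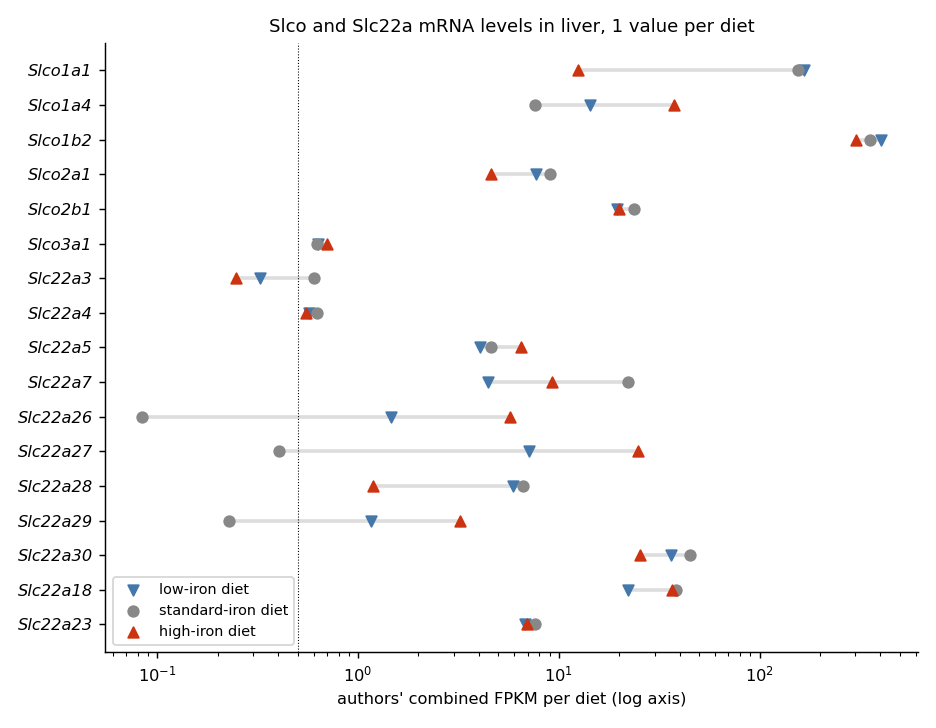
Level of 17 described members in the 3 diets, as the authors' combined FPKM on a log axis, with 1 point per diet and no error because each diet has 1 deposited value. The dotted line marks 0.5 FPKM. Slco1a1 sits at 12.5 FPKM in HID and at 156 and 167 in SID and LID, and Slc22a26, Slc22a27 and Slc22a29 are lowest in SID.

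Among the OATP1 carriers, Slco1b2 had the highest level of all members in every diet. It encodes a hepatocyte carrier of conjugated bilirubin, bile acids and many drugs. Its level was 405 FPKM in LID, 355 in SID and 302 in HID. The authors' deposited table did not call it in any contrast, with adjusted p = 0.86 in HID and 0.919 in LID, both against SID, and 0.776 between HID and LID.

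Slco1a1 encodes a carrier of bile acids and steroid conjugates that is known to be higher in male than in female mouse liver. Its level was 167 FPKM in LID, 156 in SID and 12.5 in HID. HID stood apart from both other diets, 12.5-fold below SID and 13.4-fold below LID. The log2 change was −3.47 against SID and −3.70 against LID, and both adjusted p were listed as 0 in the authors' deposited table. LID and SID differed by 1.07-fold and were not called (adjusted p = 0.959 in the authors' deposited table). In rank among the 18 members, Slco1a1 was number 2 in LID and SID and number 8 in HID.

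Slco1a4 encodes a close relative that carries bile acids and cardiac glycosides and is a known target of the xenobiotic receptor PXR. Its level was 14.3 FPKM in LID, 7.65 in SID and 37.6 in HID, so LID lay between SID and HID. It rose 4.91-fold in HID against SID (log2 change 2.23, adjusted p listed as 0) and 1.87-fold in LID against SID (log2 change 0.96, adjusted p = 0.00104), in the authors' deposited table. The LID rise is under 2-fold. HID was also 2.62-fold above LID (adjusted p = 7.02e-06 in the authors' deposited table). The FPKM ratio of Slco1a1 to Slco1a4 was 20.4 in SID, 11.7 in LID and 0.332 in HID, where Slco1a4 had the higher level of the pair. Both genes are close relatives, and the sources used here do not say how reads shared between copies were counted. The split of reads between them is therefore uncertain.

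The promoter windows of this pair are shown because both genes lie side by side and moved in opposite directions in HID. They are RefSeq windows on GRCm38.p6, which is not the build of the RNA files, and run 5′ to 3′ from 250 bases before the annotated start to 50 after it. Capitals mark matches to the searched motifs.
Slco1a1, chr6:141946913-141947212, minus strand: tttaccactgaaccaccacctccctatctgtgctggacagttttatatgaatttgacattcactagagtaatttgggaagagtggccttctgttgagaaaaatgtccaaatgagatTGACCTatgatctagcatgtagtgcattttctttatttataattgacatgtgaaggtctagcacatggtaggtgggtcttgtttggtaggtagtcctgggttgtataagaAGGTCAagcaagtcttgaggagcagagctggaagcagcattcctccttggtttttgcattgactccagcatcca
Slco1a4, chr6:141856171-141856470, minus strand: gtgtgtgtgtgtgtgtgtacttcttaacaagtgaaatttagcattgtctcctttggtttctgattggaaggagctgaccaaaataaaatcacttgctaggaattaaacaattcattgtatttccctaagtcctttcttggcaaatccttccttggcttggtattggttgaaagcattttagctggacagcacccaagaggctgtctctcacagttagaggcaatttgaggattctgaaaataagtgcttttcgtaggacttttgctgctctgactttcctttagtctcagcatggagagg

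In these 300 bases, the nuclear receptor motif AGGTCA occurred in the Slco1a1 window on the plus side at −24 and on the opposite side at −134, counted from the start to the leftmost base of the match. No searched motif occurred in the Slco1a4 window. AGGTCA also occurred on the opposite side at −81 in the window of Slco1b2, which was not called in any contrast. AGGTCA was present in 16.3% of all 32851 promoter windows of this length. For each member only the first listed window was searched, so any further start of a gene is not covered. The best local alignment of both windows covered 28 columns with 23 identical bases.

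Among the other OATPs, Slco2a1 was called. It encodes the prostaglandin transporter, which takes prostaglandins out of the extracellular fluid. Its level was 7.66 FPKM in LID, 9.07 in SID and 4.57 in HID. It fell 1.98-fold in HID against SID (log2 change −0.78, adjusted p = 0.000271 in the authors' deposited table). HID against LID was just outside the threshold (adjusted p = 0.0536 in the authors' deposited table). Fewer cells of a type and less RNA per cell cannot be told apart in whole liver. Of 7 endothelial markers, 1 was called higher and 0 lower in HID against SID, beside 2.93% and 3.65% of all tested genes. In LID against SID 2 were higher and 0 lower, and in HID against LID 0 were higher and 1 lower. Their summed level was 60.6 FPKM in LID, 69.0 in SID and 73.7 in HID. A single marker reached 56.5 FPKM, so the sums rest largely on 1 gene. The part of endothelial cells in the fall of Slco2a1 was not tested.

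Slco2b1, a carrier of steroid sulphates, stood at 19.5 FPKM in LID, 23.7 in SID and 20.1 in HID and was not called. Slco3a1, a widely expressed OATP, stood at 0.631 FPKM in LID, 0.624 in SID and 0.701 in HID and was not called either. The levels of both in the 3 diets lay within 1.22-fold of each other.

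Together the 15 Slco genes summed to 615 FPKM in LID, 552 in SID and 377 in HID. Slco1a1 gave 27.2% of that sum in LID, 28.3% in SID and 3.31% in HID. Slco1b2 gave 65.9%, 64.3% and 80.0%, and Slco1a4 gave 2.33%, 1.39% and 9.96%. The rise of Slco1a4, in FPKM, was far smaller than the fall of Slco1a1, and the sum in HID was the lowest of the 3 diets.

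**Figure D2:**
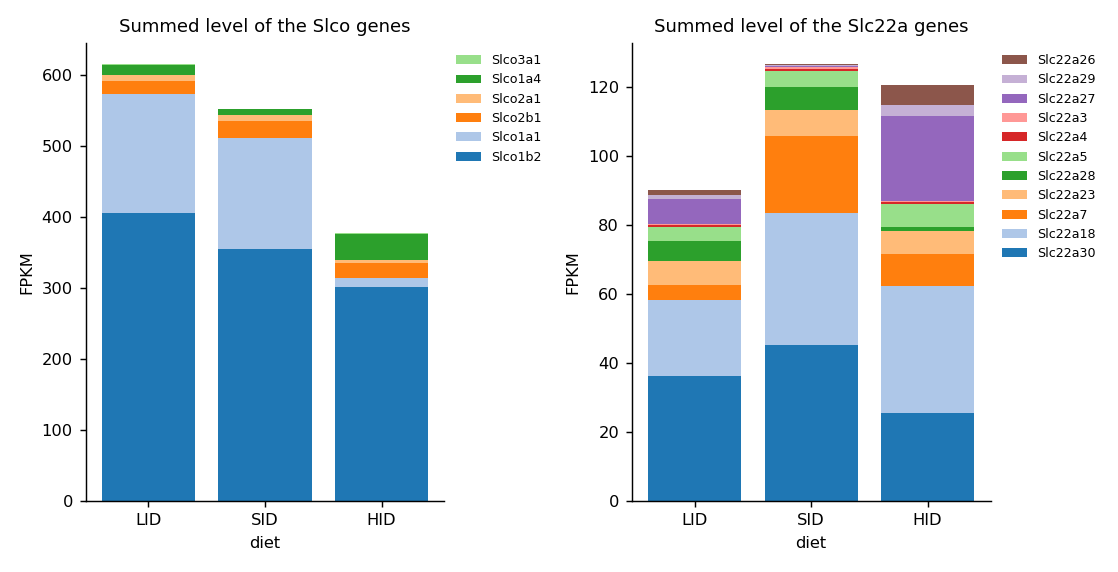
Summed FPKM of the Slco genes (left) and of the reported Slc22a genes (right) in each diet, as bars from 0 that stack the described members in 1 colour each. The Slco sum is 377 FPKM in HID against 552 in SID, with Slco1a1 at 12.5 against 156, and the bars of the reported Slc22a genes reach 121 in HID, 127 in SID and 90.8 in LID.

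Of the organic cation transporters, Slc22a3 (OCT3), a carrier of monoamines, stood at 0.323 FPKM in LID, 0.605 in SID and 0.248 in HID, close to the level threshold, and was not called (adjusted p = 0.0797 for HID against SID in the authors' deposited table). In HID against LID its adjusted p was listed as 1 in the authors' deposited table, which was read as not tested.

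Of the carnitine and zwitterion transporters, Slc22a5 (OCTN2), the sodium-dependent carnitine carrier, stood at 4.04 FPKM in LID, 4.60 in SID and 6.50 in HID. It was highest in HID but was not called (adjusted p = 0.258 against SID and 0.143 against LID in the authors' deposited table). Slc22a4 (OCTN1), which carries ergothioneine, stood at 0.569 FPKM in LID, 0.622 in SID and 0.550 in HID and was not called.

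Among the organic anion transporters, Slc22a7 (OAT2) is known as a liver carrier of organic anions and nucleotide-related compounds. Its level was 4.43 FPKM in LID, 22.2 in SID and 9.27 in HID, so SID was highest and LID lowest. It fell 2.40-fold in HID against SID (log2 change −1.11, adjusted p = 4.75e-07) and 5.02-fold in LID against SID (log2 change −1.96, adjusted p listed as 0), in the authors' deposited table. HID was 2.09-fold above LID (log2 change 0.86, adjusted p = 0.0066 in the authors' deposited table). Its rank among the members was 7 in SID, 9 in HID and 12 in LID.

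Slc22a26, Slc22a27, Slc22a28, Slc22a29 and Slc22a30 are organic anion transporter genes that follow each other directly on chromosome 19, by the order of protein-coding genes in the RefSeq table of GRCm38.p6. Their sequences are alike, and the sources used here do not say how reads shared between copies were counted, so the split of reads among them is uncertain. The 5 genes together summed to 51.9 FPKM in LID, 52.6 in SID and 60.5 in HID, which hid large and opposite differences of single genes. Slc22a26, Slc22a27 and Slc22a29 gave 1.36% of this sum in SID, 18.7% in LID and 55.8% in HID. They were grouped after their direction was seen and passed the level threshold only through LID and HID. The rise of their share from SID was thus built into the grouping and is not a separate result.

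Slc22a27 had the largest log2 change of all members in HID against SID. Its level was 7.10 FPKM in LID, 0.403 in SID and 24.8 in HID, so each diet stood well apart from the others. HID was 61.5-fold and LID 17.6-fold above SID (log2 changes 4.27 and 2.66, both adjusted p listed as 0), and HID was 3.49-fold above LID (adjusted p = 5.19e-10), in the authors' deposited table. The SID level was under 0.5 FPKM, so the size of the fold is less certain than its direction.

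Slc22a26 followed the same order of diets, at 1.46 FPKM in LID, 0.0843 in SID and 5.72 in HID. In FPKM, HID was 67.9-fold and LID 17.4-fold above SID. It rose in HID against SID (log2 change 2.70, adjusted p listed as 0) and in LID against SID (log2 change 1.32, adjusted p = 5.79e-06), in the authors' deposited table. HID was 3.91-fold above LID (adjusted p = 4.90e-06 in the authors' deposited table). Slc22a29 was the third gene with this order, at 1.16 FPKM in LID, 0.227 in SID and 3.23 in HID. In FPKM, HID was 14.2-fold and LID 5.13-fold above SID. It rose in HID against SID (log2 change 1.86, adjusted p = 8.2e-13) and in LID against SID (log2 change 0.95, adjusted p = 0.000823), in the authors' deposited table. HID was 2.78-fold above LID for this gene (adjusted p = 0.00422 in the authors' deposited table). For all 3 genes the SID level lay below the 0.5 FPKM threshold, and they entered the description through their HID and LID levels, so a difference from SID was built into their selection. The size of their log2 changes also depends on the pseudocount: with 0.1 FPKM in place of 1, Slc22a26 changed by 5.07 in HID and 3.25 in LID, Slc22a29 by 3.43 and 2.11, and Slc22a27 by 5.71 and 4.0005.

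Slc22a28, which lies between Slc22a27 and Slc22a29, went the other way in HID. Its level was 5.94 FPKM in LID, 6.65 in SID and 1.19 in HID, with LID and SID close together. It fell 5.59-fold in HID against SID (log2 change −1.73, adjusted p = 6.17e-14) and was 4.998-fold lower in HID than in LID (adjusted p = 4.75e-10), in the authors' deposited table. LID against SID was not called (adjusted p = 0.884 in the authors' deposited table). Slc22a30, the most abundant of the 5 in each diet, stood at 36.2 FPKM in LID, 45.3 in SID and 25.5 in HID. It fell 1.77-fold in HID against SID (log2 change −0.73, adjusted p = 0.0046 in the authors' deposited table). The other contrasts of Slc22a30 were not called (adjusted p = 0.543 in LID against SID and 0.318 in HID against LID, in the authors' deposited table). In SID, Slc22a30 was 112-fold above Slc22a27 in FPKM, in LID 5.10-fold and in HID 1.03-fold.

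The promoter windows of the 5 neighbours are shown because genes next to each other moved in opposite directions. In the windows of Slc22a28 and Slc22a30, capitals mark the bases at which their best local alignment differs. In the windows of Slc22a26 and Slc22a27, capitals mark motif matches. Windows are RefSeq windows on GRCm38.p6, 5′ to 3′.
Slc22a26, chr19:7802618-7802917, minus strand: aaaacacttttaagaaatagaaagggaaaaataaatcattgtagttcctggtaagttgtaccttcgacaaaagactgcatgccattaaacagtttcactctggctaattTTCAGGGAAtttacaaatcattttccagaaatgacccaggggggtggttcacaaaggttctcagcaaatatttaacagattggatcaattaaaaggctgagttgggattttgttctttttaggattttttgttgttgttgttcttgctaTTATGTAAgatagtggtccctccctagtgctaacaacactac
Slc22a27, chr19:7965978-7966277, minus strand: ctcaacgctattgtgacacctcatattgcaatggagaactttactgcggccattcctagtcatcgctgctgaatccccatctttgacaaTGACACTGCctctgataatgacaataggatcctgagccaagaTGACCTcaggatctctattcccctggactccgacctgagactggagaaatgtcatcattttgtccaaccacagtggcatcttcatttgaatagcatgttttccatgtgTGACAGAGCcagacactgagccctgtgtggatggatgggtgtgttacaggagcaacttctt
Slc22a29, chr19:8218851-8219150, minus strand: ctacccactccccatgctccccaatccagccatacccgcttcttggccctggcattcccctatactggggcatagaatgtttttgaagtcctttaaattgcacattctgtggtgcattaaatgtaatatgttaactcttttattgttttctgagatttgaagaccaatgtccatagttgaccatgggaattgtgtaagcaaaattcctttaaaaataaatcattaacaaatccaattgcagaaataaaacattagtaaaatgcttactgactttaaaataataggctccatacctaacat
Slc22a28, chr19:8131933-8132232, minus strand: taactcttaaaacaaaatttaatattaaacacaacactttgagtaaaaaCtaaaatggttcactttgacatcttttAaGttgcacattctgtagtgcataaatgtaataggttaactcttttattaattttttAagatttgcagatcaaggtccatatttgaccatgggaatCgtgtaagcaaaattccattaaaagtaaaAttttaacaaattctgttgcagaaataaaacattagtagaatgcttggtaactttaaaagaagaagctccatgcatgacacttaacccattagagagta
Slc22a30, chr19:8405056-8405355, minus strand: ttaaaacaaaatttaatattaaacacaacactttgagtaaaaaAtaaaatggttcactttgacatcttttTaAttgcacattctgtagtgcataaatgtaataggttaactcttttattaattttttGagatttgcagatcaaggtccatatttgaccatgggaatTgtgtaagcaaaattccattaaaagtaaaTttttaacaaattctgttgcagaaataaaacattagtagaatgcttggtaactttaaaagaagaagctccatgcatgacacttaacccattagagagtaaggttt

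The windows of Slc22a28 and Slc22a30, the genes that fell in HID, were nearly identical, with 288 of 294 aligned bases the same and no gap. The window of Slc22a29, which rose, aligned to that of Slc22a30 over 233 columns with 196 identical bases, and to that of Slc22a28 over 232 columns with 192. Whether the likeness of these windows bears on the direction of the differences was not tested. The window of Slc22a27 aligned to those of Slc22a28 and Slc22a30 over 15 columns only, and to that of Slc22a26 over 85 columns with 50 identical bases. That of Slc22a26 matched Slc22a30 at 116 of 196 columns, and no alignment among the 3 genes that rose covered more than 120 columns.

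The windows were searched on both strands for 4 short motifs: TTCNNNGAA (bound by STAT5), TGACNNNGC (the core of the antioxidant response element), AGGTCA (the nuclear receptor core) and TTATGNAA (the D-box bound by DBP, TEF, HLF and NFIL3). Slc22a26 held TTCNNNGAA at −141 and TTATGNAA at 9. Slc22a27 held TGACNNNGC at −161 and −11 and AGGTCA on the opposite side at −119. Slc22a28, Slc22a29 and Slc22a30 held none of the motifs in this window. Outside this cluster, the window of Slco1b2 held TTCNNNGAA at −206. Among all 32851 windows, TTCNNNGAA was present in 8.30%, TGACNNNGC in 12.4% and TTATGNAA in 3.38%. Of the 18 members, 15 had an entry in the promoter table, while Slc22a7 and Slco3a1 were among those that had none.

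**Figure D3:**
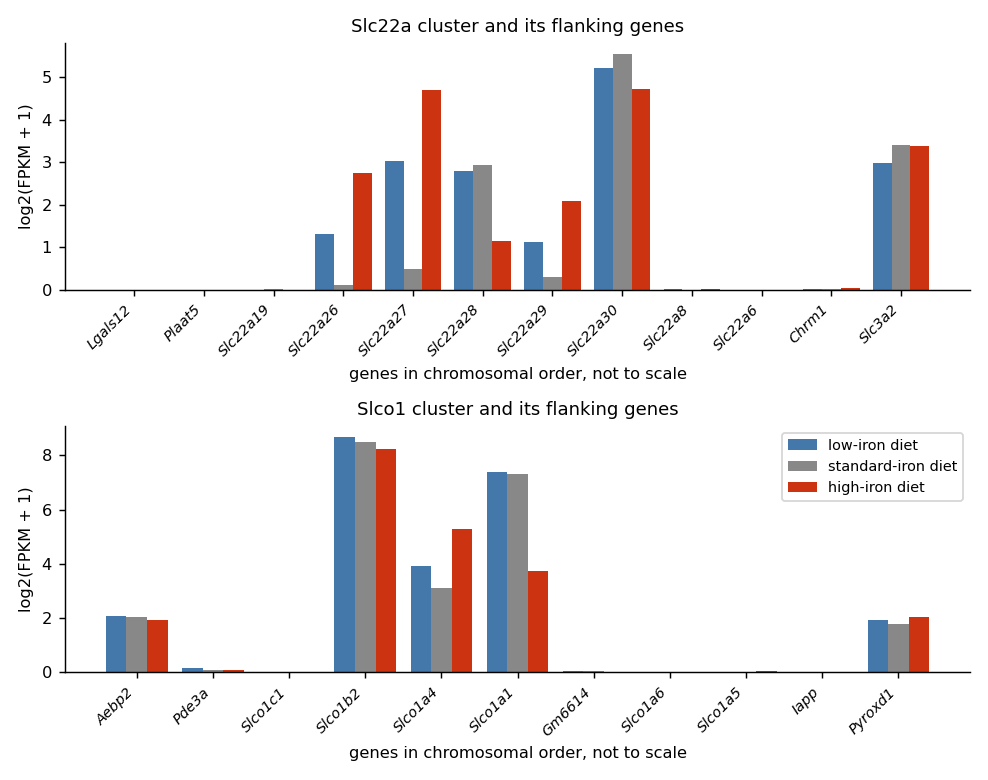
Levels of the Slc22a cluster (top) and the Slco1 cluster (bottom) with the 2 protein-coding genes on each side, as log2(FPKM + 1) with 1 bar per diet, in chromosomal order and not to scale (1 gene without a match in the table is left out). Slc22a26, Slc22a27 and Slc22a29 are higher in HID than in SID while Slc22a28 and Slc22a30 are lower, and the flanking genes that were tested were not called.

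Of the genes around the clusters, those at 0.5 FPKM or more were not called, and the others had an adjusted p listed as 1 in the authors' deposited table. On the outer side of the Slc22a cluster, Slc22a8 and Slc22a6 were at or near 0, and Slc3a2, the next gene above 0.5 FPKM, stood at 6.82 FPKM in LID, 9.56 in SID and 9.35 in HID with no call. Around the Slco1 cluster, Aebp2 stood at 3.24 FPKM in LID, 3.12 in SID and 2.78 in HID and Pyroxd1 at 2.85, 2.46 and 3.17, and neither was called. Only 1.63% to 3.65% of all tested genes were called in either direction in these contrasts. With so few flanking genes, nothing about the borders of the clusters is read from the lack of calls.

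The remaining members are divergent Slc22a genes. Slc22a18, an imprinted gene, stood at 22.0 FPKM in LID, 38.2 in SID and 36.6 in HID. It fell 1.73-fold in LID against SID (log2 change −0.63, adjusted p = 0.00954 in the authors' deposited table). HID against LID was not called (adjusted p = 0.0795 in the authors' deposited table), nor was HID against SID (0.967). Slc22a23, whose substrates are not established, stood at 6.76 FPKM in LID, 7.595 in SID and 6.91 in HID and was not called.

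**Figure D4:**
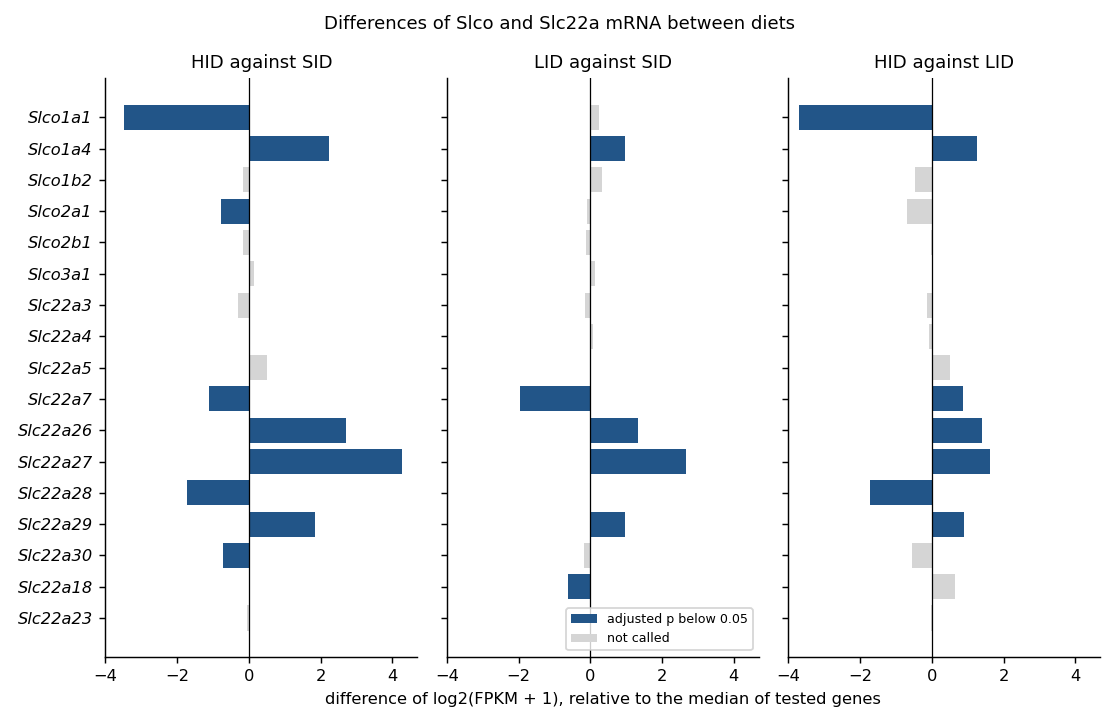
Differences of log2(FPKM + 1) between diets for 17 described members, relative to the median of tested genes in each contrast, as bars from 0 in 3 panels. Dark bars are called in the authors' deposited table. In HID against SID the bars run from −3.47 for Slco1a1 to 4.27 for Slc22a27, and in LID against SID from −1.96 for Slc22a7 to 2.66 for Slc22a27.

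The reported Slc22a genes summed to 90.8 FPKM in LID, 127 in SID and 121 in HID. Slc22a27 gave 7.82% of that sum in LID, 0.317% in SID and 20.4% in HID. Slc22a7 gave 4.88%, 17.5% and 7.63% in the same order. By these shares Slc22a27 went from a trace in SID to about the share of Slc22a30 in HID, which was 21.0%.

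Of the 23 members under 0.5 FPKM in all diets, 14 were Slc22a and 9 Slco genes. Of these, 20 stayed under 0.1 FPKM in every diet, and 6 were listed at 0 in all 3. Slc22a15 came closest to the threshold from below, at 0.361 FPKM in LID, 0.339 in SID and 0.397 in HID, followed by Slc22a17 at 0.218, 0.206 and 0.217. Slc22a3 and Slc22a4, described above with highest values of 0.605 and 0.622 FPKM, came closest from above.

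Other solute transporters of hepatocytes and regulators of transporter genes were taken from 2 lists. Of 26 further transporter genes and scaffold proteins, 24 were tested in HID against SID at 0.5 FPKM or more, and 4 rose and 1 fell. Some of those that rose were under 0.5 FPKM in LID and SID and passed the level threshold only through HID. In LID against SID 0 of 23 rose and 2 fell, and in HID against LID 3 of 24 were higher and 1 lower. The shares of all tested genes given above were 2.93% and 3.65%, 1.63% and 2.89%, and 2.02% and 1.84%, higher and lower in the same order, and with so few genes nothing particular to the list is read from its counts. The list's median log2 change was −0.01, −0.11 and 0.12 in these contrasts. Slc10a1 (NTCP), the sodium-dependent bile acid carrier of the sinusoidal membrane, stood at 477 FPKM in LID, 456 in SID and 653 in HID and was not called, and it is named after its values were seen.

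Abcc3 (MRP3), an exporter of organic anions into blood, stood at 6.86 FPKM in LID, 14.3 in SID and 26.5 in HID, rose in HID (adjusted p = 0.00411) and fell in LID (adjusted p = 2.16e-05), in the authors' deposited table. Abcc4 (MRP4), another exporter of organic anions into blood, stood at 0.258 FPKM in LID, 0.221 in SID and 0.870 in HID and rose in HID against SID (adjusted p = 5.79e-05 in the authors' deposited table). Abcb1a, a P-glycoprotein gene, stood at 0.482, 0.303 and 0.861 FPKM in LID, SID and HID and rose in HID (adjusted p = 0.00145 in the authors' deposited table). Abcc4 and Abcb1a were under 0.5 FPKM in LID and SID. They entered the counts only through HID, so a rise in HID was built into their selection.

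Slc10a2 (ASBT), the sodium-dependent bile acid carrier of bile duct cells and ileum, stood at 2.39 FPKM in LID, 3.04 in SID and 0.685 in HID and fell in HID against SID (adjusted p = 8.74e-06 in the authors' deposited table). Slc9a3r1, which encodes a scaffold protein of transporters, fell from 67.8 FPKM in SID to 35.9 in LID (adjusted p = 0.000608 in the authors' deposited table). Abcg5, a canalicular sterol exporter, was at 24.9 FPKM in HID and 14.6 in LID (adjusted p = 0.0421 in the authors' deposited table).

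Of the 27 regulators, 26 were tested, with 3 higher and 3 lower in HID against SID, 1 higher and 3 lower in LID against SID, and 2 higher and 1 lower in HID against LID. These counts stand beside the same shares of all tested genes, 1.63% to 3.65% in either direction, and nothing particular to the regulators is read from them. The receptors CAR (Nr1i3) and PXR (Nr1i2) were not called, with Nr1i3 at 24.1 FPKM in LID, 29.1 in SID and 25.0 in HID and Nr1i2 at 18.7, 20.9 and 22.6. Hnf4a was not called either. Ahr, the aryl hydrocarbon receptor gene, rose from 4.10 FPKM in SID to 7.24 in HID (adjusted p = 0.00808 in the authors' deposited table).

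Cux2, a repressor gene known to be expressed in female mouse liver, stood at 0.571 FPKM in LID, 0.128 in SID and 1.18 in HID. It rose in HID against SID (adjusted p = 5.66e-10) and in LID against SID (adjusted p = 0.00111), in the authors' deposited table. Its SID level was under 0.5 FPKM, so it passed the level threshold only through LID and HID. SID was lowest and HID highest, the order of diets also seen for Slc22a26, Slc22a27, Slc22a29 and Slco1a4. Abcc4, Abcb1a and Slc16a5 had this order, too, so it is not particular to these genes. How many of all genes had it was not counted, and a link of Cux2 to the members was not tested. Among the D-box factors, Dbp stood at 0.675 FPKM in LID, 2.10 in SID and 19.0 in HID and Nfil3 at 12.3, 17.3 and 3.66, both called in HID against SID (adjusted p = 3.81e-07 and listed as 0 in the authors' deposited table). Tef fell from 8.10 FPKM in SID to 3.37 in LID (adjusted p = 1.49e-05) and Hlf from 5.66 to 3.38 (adjusted p = 0.0159), in the authors' deposited table. Dbp and Nfil3 follow the time of day in liver, and the sources used here do not give the hour of sampling. Whether it differed between the diets was not tested.

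**Figure D5:**
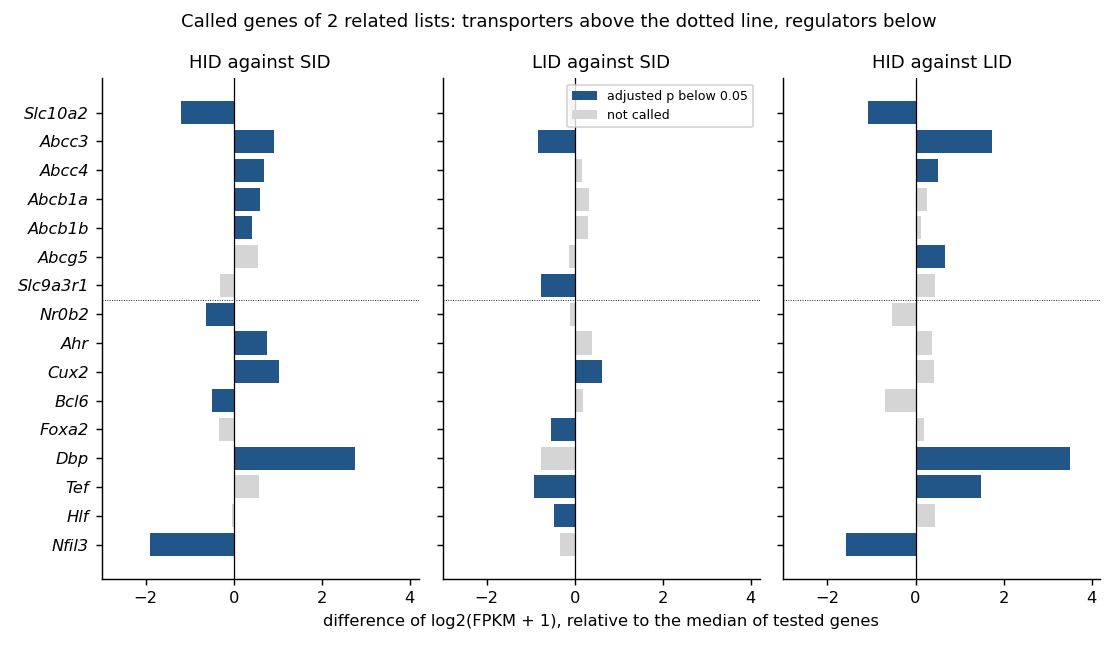
Differences of log2(FPKM + 1) between diets, relative to the median of tested genes, for the genes of both related lists that were called in at least 1 contrast, with transporters above the dotted line and regulators below it. Dark bars are called in the authors' deposited table. Dbp has the largest bar in HID against SID, at 2.76, and Nfil3 the lowest, at −1.91.

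The tissue label was checked on marker genes. Of 10 hepatocyte markers, 0 were called in any contrast of the authors' deposited table. Hepatocyte markers summed to 19764 FPKM in LID, 25659 in SID and 20862 in HID without Serpina1a, which was listed at 0 in LID and SID. With it the HID sum was 22872 FPKM, so Serpina1a had a high value in HID only, without a call, and it is a gene with near-identical copies that can share reads. Of 5 kidney tubule markers all stayed under 0.2 FPKM, and Umod, Aqp2 and Slc12a1 were listed at 0 in all diets. Of 9 Kupffer cell markers, 2 rose in HID and 5 in LID against SID, with summed levels of 277 FPKM in LID, 173 in SID and 244 in HID. Of 6 neutrophil markers, 2 rose in HID and 6 in LID, with sums of 194, 6.51 and 21.3 FPKM in LID, SID and HID. Of 5 erythroid markers, 3 rose and 1 fell in LID and 1 fell in HID, with sums of 1054, 739 and 756 FPKM. Stellate cell markers (7) were not called, with sums of 86.9, 66.3 and 92.8 FPKM, and 1 of 5 cholangiocyte markers rose in HID, with sums of 4.35, 3.44 and 5.32 FPKM. In HID against LID, 1 Kupffer cell, 6 neutrophil and 3 erythroid markers were lower and 0 of these markers higher. Among all tested genes, 2.93% rose and 3.65% fell in HID against SID, and 1.63% and 2.89% did in LID against SID. In HID against LID 2.02% were higher and 1.84% lower. A single stellate cell marker reached 83.8 FPKM, so that sum rests largely on 1 gene. The part of these cells in the members' differences was not tested.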

How the data were processed

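Liver RNA of 3 diets (3 libraries each) was sequenced. TopHat and Cufflinks 2.2.1 on mm9 were used, per the submitters' processing notes. The authors deposited 1 value per gene and diet, read here as FPKM, the unit Cufflinks writes, since no header states one. The table's columns are named NORM, LFE and GFE, and GFE was taken as HID because the other columns are the other 2 diets. For each of 3 contrasts the deposited table also holds a p-value and its adjusted form. Which test gave them is not stated in the labels or headers. The adjusted values matched Benjamini-Hochberg adjustment over 34481 tests of all contrasts together (largest gap 2.69e-06). Of the deposited methylation table, only gene names were read, and its 9 columns of scores per animal were not used.

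No test of samples could be fitted to 1 value per diet, so the calls are the authors' (adjusted p below 0.05). Changes are differences of log2(FPKM + 1), relative to the median of genes with a mean of at least 1 FPKM and an adjusted p below 1 (9473, 9482 and 9490 genes). Calls of members are set beside those of all genes at 0.5 FPKM or more in at least 1 diet. FPKM summed to 420623 in LID, 467304 in SID and 485504 in HID. Adjustment and centring were run on simulated data, for centring with a constant added shift. This checks the computation only, not whether centring suits these diets.

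The members, lists and motifs were chosen with earlier results of these data known. Named are the members past the level threshold, except 1 that counts include but whose values are not reported here, and up to 6 called genes of each related list, with the smallest p. Promoters were to be shown for 4 of the 5 members called in 3 contrasts, those with the largest log2 change (Slc22a27, Slc22a26, Slco1a4 and Slc22a7), of which Slc22a26, Slc22a27 and Slco1a4 have an entry. Those of Slco1a1, Slc22a28, Slc22a29 and Slc22a30, the flanking genes, and Slc10a1, Nr1i2, Nr1i3 and Hnf4a were chosen after their values were seen. For each member the first listed window was used, while the shares with a motif cover all windows. Windows were aligned with Biopython 1.88. Older symbols were matched through the RefSeq table of GRCm38.p6.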

Additional observations from a re-analysis of the deposited data

How the results depend on the processing

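Calls held under most alternatives: thresholds of 0.01 and 0.1 on the adjusted p, adjustment within the contrast, a level threshold of 1 FPKM, and no filter on low values each kept the counts of called members within 1.5 times. The level settings reused the same adjusted p. Every called member reached 1 FPKM in at least 1 diet, so that threshold could not remove a call. Dropping the filter could only add calls of low genes, and it added none. Requiring an FPKM ratio of at least 2 as well left 3 members lower in HID against SID, where 5 were called, and 1 lower in LID against SID, where 2 were called, by construction. It also left 3 of 4 members higher in LID against SID, without Slco1a4. None of the 22 called level changes took another sign under 2 other pseudocounts, no centring, rescaling to the same sum or centring on all genes above 0. This was largely fixed in advance. Another pseudocount does not reverse a difference in FPKM, and the shifts from centring and rescaling were smaller than the called changes. Sizes moved by over 1.5 times with a pseudocount of 0.1 FPKM for Slc22a26 and Slc22a29 in HID and LID against SID and for Slc22a27 in LID against SID. Of the other 32 level changes, 9 took another sign under at least 1 of these alternatives. Without Slco1b2, Slco1a1 gave 79.8% of the Slco sum in LID, 79.1% in SID and 16.5% in HID, and without Slc22a30, Slc22a27 gave 13%, 0.492% and 25.9% of the sum of the reported Slc22a genes. No paired analysis was possible because the RNA table holds 1 value per diet, and no member has a methylation locus. For the same reasons no replicate was left out and other settings for methylation scores (their logit, a replicate block) were not run. Read depth is unknown, so members near 0 FPKM could not be given a detection limit.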

Other observations

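Some other solute carriers were called, too. Of 187 further Slc genes at 0.5 FPKM or more in at least 1 diet, 7 of 185 tested rose and 13 fell in HID against SID, 3 of 187 rose and 8 fell in LID against SID, and 9 were higher and 6 lower in HID against LID. Among all tested genes at that level, 2.93% rose and 3.65% fell in HID against SID, 1.63% and 2.89% did in LID against SID, and 2.02% were higher and 1.84% lower in HID against LID. Nothing particular to solute carriers is read from these counts. The genes named here were chosen after their values were seen. Slc16a5, a monocarboxylate transporter family gene, stood at 2.17 FPKM in LID, 1.39 in SID and 8.78 in HID (adjusted p listed as 0 for HID against SID in the authors' deposited table). Slc20a1, a sodium-phosphate carrier, stood at 5.03, 8.01 and 16.5 FPKM in LID, SID and HID (adjusted p = 0.000468 for HID against SID in the authors' deposited table). Slc41a2, a magnesium transporter gene, fell from 2.24 FPKM in SID to 0.435 in HID (adjusted p = 1.07e-10 in the authors' deposited table) and stood at 2.41 in LID.

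In LID, Slc1a4, a carrier of neutral amino acids, rose from 0.795 to 3.19 FPKM (adjusted p = 2.08e-09 in the authors' deposited table), while HID stood at 0.744. Slc13a3, a dicarboxylate carrier, fell from 3.10 to 1.38 FPKM in LID (adjusted p = 0.00477 in the authors' deposited table) and stood at 4.07 in HID. Slc6a9, a glycine transporter, fell in both diets, from 6.16 FPKM in SID to 3.39 in HID (adjusted p = 0.00699) and 3.11 in LID (adjusted p = 0.00237), in the authors' deposited table.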
